A study of Rattus norvegicus with 5 samples.

Results

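The genes described here run the handling of sugar in the lens: glucose and lactate transport, glycolysis, the fate of pyruvate, the pentose phosphate pathway and the polyol pathway. They were chosen by name, as a list of 35 genes, and not by a cut on their values, but with earlier results of these data known. Of the 35, 29 had a probe set annotated with that gene alone, 1 probe set each, among 18166 such genes on the array. Tpi1, Eno1, Pkm and Pgd lay on probe sets that list further genes, so no value is given for them, and Hk1 and Pgam1 had no probe set of their own symbol in the annotation used and were not analysed here. The 20 genes that reached a log2 signal of 5 in at least 1 array are called measured below, against 4033 of all 18166 genes. By step they were 3 of 4 transporters, 8 of 17 glycolysis genes, 4 of 7 genes of lactate and pyruvate, 3 of 5 of the pentose phosphate pathway and 2 of 2 of the polyol pathway.

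Lenses of 6-week-old male Sprague Dawley rats had been kept in serum-free medium, renewed daily with its drug, and whole-lens RNA of 5 conditions was read on 1 array each. The Control lens had been in normal medium for 4 days, as the methods give it, the MMS lenses in medium with 1 mM methylmethanesulfonate for 2 days (MMS Day 2) or 4 days (MMS Day 4), and the Bleomycin lenses in medium with 800 μg/mL Bleomycin for 2 days (Bleomycin Day 2) or 6 days (Bleomycin Day 6). MMS adds methyl groups to DNA bases, and Bleomycin cuts DNA strands. The values are log2 signals after RMA, a method that corrects background and puts arrays on 1 scale, and a difference of 1 stands for 2-fold. With 1 array per condition no difference has an error or a p-value, the spread between lenses is unknown, and all 4 treated arrays were set against the same Control array. MMS Day 4 alone matched the Control in days of culture, so in the other arrays drug and time cannot be told apart.

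The lens has no blood vessels and little oxygen, and it lives mainly on glycolysis of glucose taken up from the aqueous humor. Most pyruvate leaves as lactate, the pentose phosphate pathway supplies NADPH for glutathione reduction, and the polyol pathway turns glucose into sorbitol, which is known for its part in sugar cataract. Many genes of glycolysis are targets of HIF-1, a transcription factor whose alpha subunit is degraded when oxygen is present.

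Transcripts of a glucose transporter and of a lactate transporter stood lower in the treated lenses, while most enzymes in between stayed within 2-fold. Slc2a1, the glucose transporter GLUT1, and Slc16a3, the lactate exporter MCT4, were at least 2-fold lower than in Control in all 4 treated arrays, with 1 exception for Slc16a3 after median centring or quantile normalization (MMS Day 4), and Slc16a3 passed the filter through Control alone. Hk2, a hexokinase, Gpi, the glucose phosphate isomerase, and Eno2, an enolase, were at least 2-fold lower in some of them. Thus 2 of the 20 measured genes were lower in all 4 treated arrays, beside 6.52% of all 4033 genes. In 1 or more arrays 5 were, beside 30.9%. The other 15 measured genes were within 2-fold in every treated array, as were 66.4% of all 4033 genes. Pgk1, Bpgm and Taldo1 stood above Control in all 4 treated arrays, but with arrays centred on their olfactory receptor probe sets Pgk1 and Bpgm stood below it in MMS Day 4.

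Counted by array, 2 of the 20 genes were at least 2-fold lower in MMS Day 2, against a background of 9.47% of all genes that passed the filter. In MMS Day 4 they were 5 of 20, against 27.0%. With Bleomycin they were 3 of 20 on Day 2, against 9.40%, and 4 of 20 on Day 6, against 19.6%. None of the 20 was at least 2-fold higher in any treated array, where the background was 1.19%, 1.26%, 0.818% and 1.41% in the order of the 2 MMS arrays and then the 2 Bleomycin arrays, the earlier first, which is kept below. Among genes above the filter the list therefore lay near the background in number. Over all 29 genes with a probe set the counts of lower genes were the same, 2, 5, 3 and 4, or 6.90%, 17.2%, 10.3% and 13.8%, against 2.85%, 8.10%, 3.07% and 6.11% of all 18166 genes, most of which lie under the filter.

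**Figure D1:**
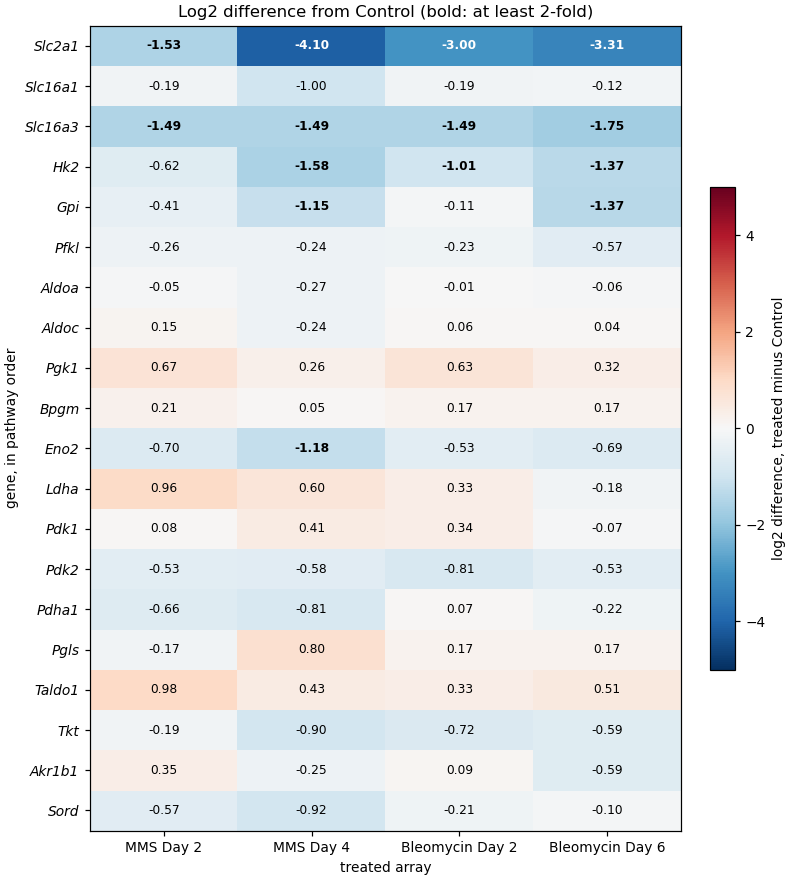
Log2 difference from Control (colour and printed value, blue for lower and red for higher) of each of the 20 measured genes (rows, from transport to polyol steps) in the 4 treated arrays (columns). Slc2a1 and Slc16a3 are at least 2-fold lower in every column, and no gene is 2-fold higher in any.

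The median difference of the 20 genes was -0.19, -0.43, -0.06 and -0.20, and the median of all 4033 genes was -0.15, -0.46, -0.14 and -0.28. Relative to that general shift the list stood at -0.04, 0.03, 0.08 and 0.08. Of the 20 genes, 11 were below Control in all 4 arrays and 3 above it, beside 50.3% and 11.5% of all genes. The general shift depends on the filter and on scaling. With no filter the median of all 18166 genes was 0.00 in each treated array. That of the 29 genes with a probe set was -0.19, -0.27, -0.11 and -0.22. The closeness of the list to all genes thus holds above the filter. Of all genes at least 2-fold apart from Control, 88.8%, 95.5%, 92.0% and 93.3% were lower, but 62.9%, 59.7%, 68.6% and 67.3% with each array centred on its median, and 63.0%, 60.4%, 64.8% and 62.9% after quantile normalization. With median centring the lower counts of the 20 genes were 2, 1, 2 and 2, against 4.54%, 9.77%, 5.21% and 9.55% of all genes. With the same centring 2 of the 20 genes in MMS Day 2 and 4 in MMS Day 4 were at least 2-fold higher. The shares of all genes were 2.68% and 6.60%, so that of the list lay above the background in both MMS arrays. Among the 4 was Pgls, which passed the filter through treated arrays alone. Below Control in all 4 arrays under each of the 4 scalings compared were Slc2a1, Slc16a3, Hk2 and Eno2, and above it Taldo1. Slc2a1 alone was at least 2-fold lower in all of these. The same count was not made over all genes, so these numbers have no background beside them. Slc16a3 and Hk2 passed the filter through Control alone, which favours lower values in the treated arrays.

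**Figure D2:**
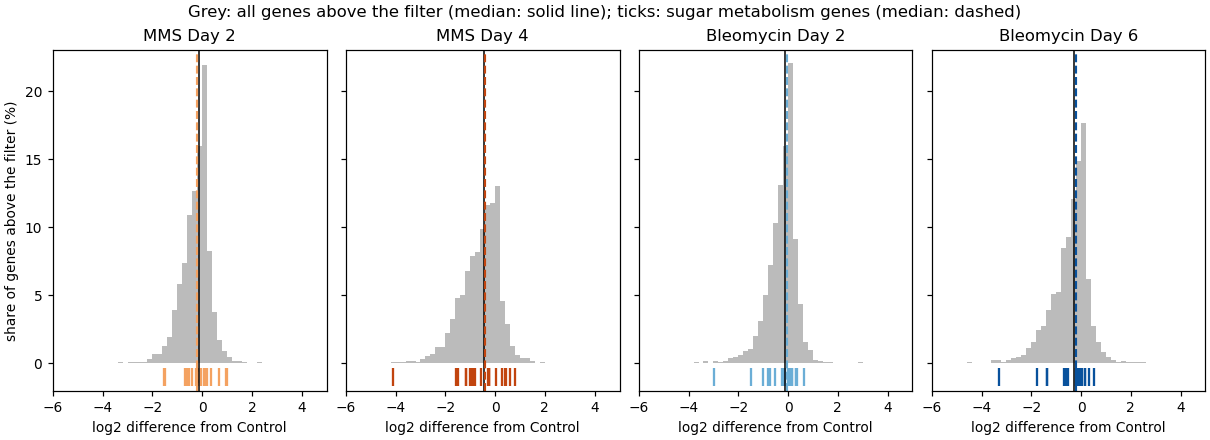
Share of all 4033 genes above the filter (grey bars, vertical axis in percent) by log2 difference from Control (horizontal axis) in each treated array, with the 20 sugar metabolism genes as ticks below. Solid and dashed lines are the medians of all genes and of the 20 genes. The lines lie close together in each panel (-0.46 and -0.43 in MMS Day 4), and the leftmost tick is Slc2a1.

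Slc2a1 had a log2 signal of 8.91 in Control, 7.38 and 4.81 with MMS on Days 2 and 4, and 5.92 and 5.61 with Bleomycin on Days 2 and 6. All treated arrays were below Control, MMS Day 2 nearest to it and MMS Day 4 under the filter. The log2 differences from Control were -1.53, -4.10, -3.00 and -3.31, or 2.89-fold, 17.1-fold, 7.98-fold and 9.89-fold lower. Among the 4033 genes, ordered from the lowest difference, Slc2a1 held places 108 and 8 with MMS on Days 2 and 4, and 19 and 28 with Bleomycin on Days 2 and 6. The smallest fall under another scaling was -1.24, -3.47, -2.71 and -2.84, each with median centring. Slc2a3, the glucose transporter GLUT3 best known from neurons, stayed under the filter with signals from 2.75 to 3.26.

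Slc16a3 had a signal of 5.96 in Control, 4.46 in both MMS arrays and on Day 2 of Bleomycin alike, and 4.21 in Bleomycin Day 6. It passed the filter through Control alone, so the treated values lie where the array resolves little, and RMA gave the same value to 3 arrays. Its differences were -1.49, -1.49, -1.49 and -1.75, and with median centring the difference in MMS Day 4 was -0.87, under 2-fold. Slc16a1, the transporter MCT1, which carries lactate and pyruvate, had 5.14 in Control and 4.95, 4.14, 4.95 and 5.01 in the treated arrays. MMS Day 4 was set apart, just under 2-fold lower, with -0.24 to -1.37 over the scalings, and the 3 other differences changed sign with median centring. Bsg, the membrane protein that brings both lactate transporters to the cell surface, had 7.41 in Control and 6.33, 5.84, 6.14 and 5.87 in the treated arrays. Its differences were -1.08, -1.57, -1.27 and -1.54, of which the first 3 came under 2-fold with median centring (-0.79, -0.94 and -0.99).

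**Figure D3:**
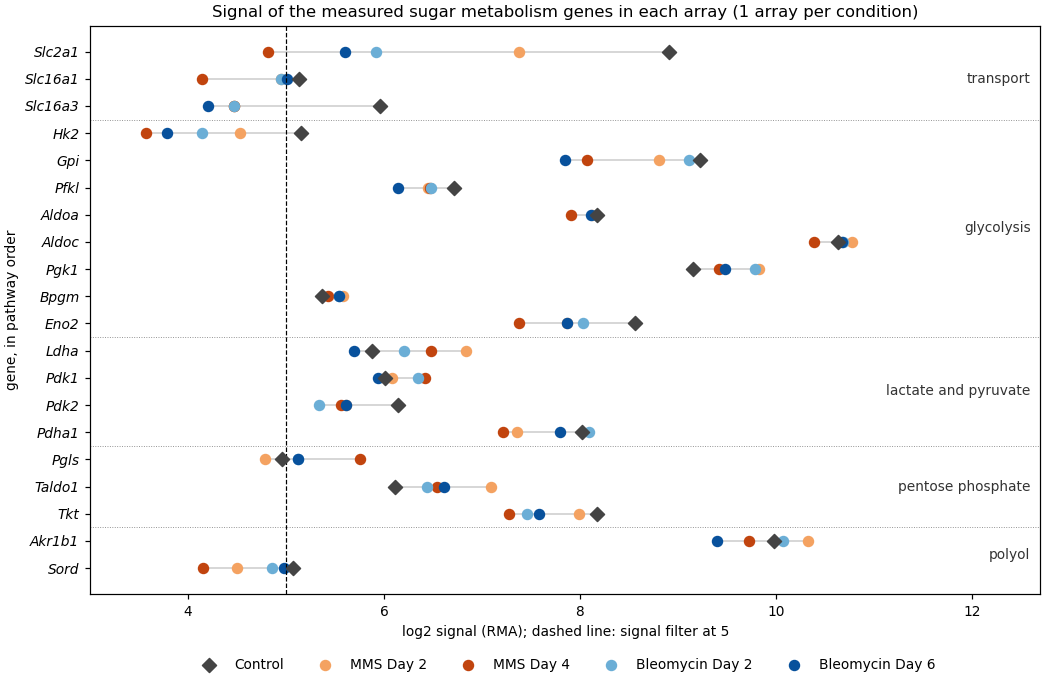
Log2 signal after RMA (horizontal axis) of the 20 measured genes (rows, in pathway order) in each of the 5 arrays. Diamonds are Control and circles the treated arrays, 1 array per condition, grey bars span the 5 values and the dashed line is the filter at 5. Control is the rightmost point for 11 genes, among them Slc2a1, Slc16a3, Hk2, Gpi and Eno2. It is the leftmost for Pgk1, Bpgm and Taldo1, and 3 treated points of Slc16a3 coincide at 4.46.

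At the entry of glycolysis, Hk2 had 5.15 in Control, 4.53 and 3.57 with MMS on Days 2 and 4, and 4.14 and 3.78 with Bleomycin on Days 2 and 6. Control alone reached the filter. Its differences were -0.62, -1.58, -1.01 and -1.37, and with median centring none of them reached 2-fold, the last 3 being -0.95, -0.72 and -0.90. Gpi, which turns glucose 6-phosphate into fructose 6-phosphate, had 9.22 in Control and 8.81, 8.07, 9.12 and 7.85 in the treated arrays. The Day 2 arrays of both drugs were near Control and the later arrays low, with differences of -0.41, -1.15, -0.11 and -1.37. With median centring the later differences were -0.52 and -0.91, and in Bleomycin Day 2 Gpi stood at 0.18.

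The middle of the pathway moved little. Pfkl, the liver-type phosphofructokinase, had 6.71 in Control and between 6.14 and 6.48 in the treated arrays. Aldoa, an aldolase, had 8.17 in Control and between 7.90 and 8.16 in the treated arrays, and Aldoc, the aldolase known from brain, had 10.63 against 10.78, 10.39, 10.69 and 10.68. Control lay inside the range of the treated arrays for Aldoc. The differences of Aldoa, from -0.27 to -0.01, turned positive in all 4 arrays with median centring, so no direction is read from them.

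Pgk1, phosphoglycerate kinase, which makes the first ATP of glycolysis, had 9.16 in Control and 9.83, 9.42, 9.79 and 9.48 in the treated arrays. Every treated array was above Control, the Day 2 arrays most, with differences of 0.67, 0.26, 0.63 and 0.32, but after centring on olfactory receptor probe sets the value in MMS Day 4 was -0.11. Bpgm, which forms 2,3-bisphosphoglycerate and is known from red blood cells, had 5.37 in Control and between 5.43 and 5.58 in the treated arrays. Eno2 had 8.56 in Control and 7.86, 7.38, 8.03 and 7.87 in the treated arrays. All were below Control, by -0.70, -1.18, -0.53 and -0.69, and under no scaling did one stand above it. MMS Day 4, the one value past 2-fold, was -0.56 with median centring.

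Ldha, the lactate dehydrogenase subunit that favours lactate, had 5.88 in Control, 6.84 and 6.48 with MMS on Days 2 and 4, and 6.21 and 5.69 with Bleomycin on Days 2 and 6. The MMS arrays were highest and Bleomycin Day 6 lowest, with differences of 0.96, 0.60, 0.33 and -0.18. With median centring the MMS differences were 1.25 and 1.23, past 2-fold, and Bleomycin Day 6 turned to 0.28. Ldhb, the other subunit, stayed under the filter, with signals from 3.25 to 3.48.

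At the entry of pyruvate into mitochondria, Pdha1, the catalytic alpha subunit of pyruvate dehydrogenase, had 8.02 in Control, 7.36 and 7.21 in the MMS arrays, and 8.09 and 7.80 in the Bleomycin arrays. Both MMS arrays were below both Bleomycin arrays, by 0.73 on Day 2 and 0.59 between the later arrays, which differ in days. Against Control the differences were -0.66, -0.81, 0.07 and -0.22. Pdk1 and Pdk2 are kinases that switch pyruvate dehydrogenase off. Pdk1 had 6.01 in Control and 6.08, 6.42, 6.35 and 5.94 in the treated arrays, with Control inside their range. Pdk2 had 6.15 in Control and 5.61, 5.56, 5.33 and 5.61 in the treated arrays, all below Control by -0.53 to -0.81, though with median centring MMS Day 4 stood at 0.05.

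In the pentose phosphate pathway, Taldo1 and Tkt, transaldolase and transketolase, pass carbon between this pathway and glycolysis. Taldo1 had 6.11 in Control and 7.09, 6.54, 6.44 and 6.62 in the treated arrays. All were above Control, by 0.98, 0.43, 0.33 and 0.51, and MMS Day 2 ranked place 50 of 4033 from the highest difference. With median centring the MMS values were 1.27 and 1.06. Tkt had 8.18 in Control and 7.99, 7.28, 7.46 and 7.59 in the treated arrays, all below Control by -0.19 to -0.90, although with median centring MMS Day 2 stood at 0.10. Pgls, the lactonase of the oxidative branch, had 4.96 in Control, under the filter, and 4.79, 5.75, 5.12 and 5.12 in the treated arrays. MMS Day 4 was the high one, 0.80 above Control and 1.43 with median centring, and the gene passed the filter through treated arrays alone.

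In the polyol pathway, Akr1b1, aldose reductase, which makes sorbitol from glucose, had 9.98 in Control, 10.33 and 9.73 with MMS on Days 2 and 4, and 10.07 and 9.39 with Bleomycin on Days 2 and 6. The Day 2 arrays lay above Control and the later arrays below it, with differences of 0.35, -0.25, 0.09 and -0.59. The sign in MMS Day 4 turned with median centring (0.38) and that in Bleomycin Day 2 with olfactory receptor centring (-0.08). Sord, sorbitol dehydrogenase, the next enzyme, had 5.07 in Control and 4.50, 4.15, 4.86 and 4.98 in the treated arrays. Control alone reached the filter, and the MMS arrays were lower than the Bleomycin arrays. The differences were -0.57, -0.92, -0.21 and -0.10, of which the Bleomycin values turned positive with median centring (0.07 and 0.37).

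The 9 remaining genes stayed under the filter in every array, with signals from 2.27 to 4.95. They were Slc2a3, the phosphofructokinase subunits Pfkm and Pfkp, the fructose 2,6-bisphosphate enzymes Pfkfb2 and Pfkfb3, Ldhb, the kinase Pdk4, the pyruvate dehydrogenase subunit Pdhb and Rpia, the ribose 5-phosphate isomerase. Pfkfb3 was nearest to the filter, with 4.95 in Control and 4.70, 4.32, 4.65 and 4.58 in the treated arrays. Pfkm (2.51) and Pdhb (4.54) had 1 identical value in all 5 arrays, which shows that RMA did not separate the arrays there. Differences from Control in this group ran from -0.73 (Pfkp) to 0.42 (Rpia), where the array resolves little.

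Between the 2 arrays of a drug, Slc2a1 differed by -2.57 (MMS Day 4 minus MMS Day 2), and it was the only 1 of the 20 genes at least 2-fold lower there, against 7.84% of all genes, with none higher (0.198%). In Bleomycin Day 6 against Bleomycin Day 2, Gpi (-1.27) was the only gene of the 20 at least 2-fold lower, against 4.04% of all genes, again with none higher (0.521%). Slc2a1 had -0.31 in that pair. Of the 20 genes, 16 were lower in the later MMS array and 13 in the later Bleomycin array, beside 3050 and 2502 of all 4033 genes. The medians were -0.38 and -0.21, beside -0.27 and -0.11 over all genes. Pgls was higher in the later MMS array, by 0.97, which median centring took past 2-fold.

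Between the drugs on Day 2, at equal days, Slc2a1 was higher by 1.47 in MMS than in Bleomycin. It was the only 1 of the 20 genes at least 2-fold higher, against 1.39% of all genes, and none was 2-fold lower (0.521%). Taldo1 (0.65) and Ldha (0.63) stood higher in MMS Day 2, and Pdha1 lower. Between MMS Day 4 and Bleomycin Day 6, none of the 20 was at least 2-fold higher (0.893% of all genes) or lower (4.29%). There Slc2a1 had -0.79, the opposite side, and Ldha 0.79, while Slc16a1 had -0.87 and Sord -0.82. After olfactory receptor centring 2 genes were at least 2-fold lower in that pair.

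Further genes of sugar metabolism were taken from 4 lists of 103 genes, of which 86 had a probe set and 26 passed the filter. These lists, too, were chosen with earlier results of these data known. Of these 26, 7, 13, 9 and 8 were at least 2-fold lower than Control, against 9.47%, 27.0%, 9.40% and 19.6% of all genes. Higher were 1, 0, 0 and 0, against 1.19%, 1.26%, 0.818% and 1.41%. With median centring 4, 9, 4 and 7 were lower, against 4.54%, 9.77%, 5.21% and 9.55%, and 2, 3, 1 and 1 higher, against 2.68%, 6.60%, 2.38% and 4.64%. The medians as deposited were -0.14, -0.96, -0.13 and -0.54. The list of regulators held most of them, with 4, 8, 5 and 5 of its 10 genes lower and medians of -0.83, -1.78, -0.85 and -0.93, and with 3, 7, 3 and 4 lower after median centring. In the 3 lists of enzymes and transporters, 16 genes passed and the medians lay between -0.80 and 0.28.

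Hif1a, the oxygen-regulated subunit of HIF-1, had 8.69 in Control, 7.80 and 5.08 with MMS on Days 2 and 4, and 6.11 and 5.70 with Bleomycin on Days 2 and 6. Its differences were -0.89, -3.60, -2.58 and -2.98. The arrays stood in the same order as for Slc2a1, an order shared by 188 of the 4033 genes (4.66%), among them Hk2, Bsg and the epithelial marker Pax6. Vegfa and Car9, an angiogenic factor and a carbonic anhydrase, both known targets of HIF-1, were lower too. Vegfa had 7.51 in Control and 5.65, 4.72, 6.51 and 5.18 in the treated arrays. With median centring Vegfa came under 2-fold in Bleomycin Day 2 (-0.72). Car9 had 6.44 against 5.09, 4.77, 4.96 and 4.19. Egln1, an oxygen sensor that marks HIF-1 alpha for destruction, had differences of -1.07, -1.69, -1.01 and -1.07, of which MMS Day 4 alone stayed past 2-fold with median centring. Ankrd37, which is likewise a HIF-1 target, had 6.29 in Control and between 5.81 and 6.37 in the treated arrays. Among the measured genes the known targets Pgk1, Ldha and Slc2a1 differed in direction as deposited. Pgk1 stood above Control in all 4 arrays, Ldha in 3 of 4, and Slc2a1 below it in all 4. They are examples and no count of targets. Many other glycolysis genes are targets too, and of the 20 measured genes 11 were below Control in all 4 arrays and 3 above it. The signal of Hif1a is that of its transcript and not of the protein, and the part of HIF-1 in these values was not tested.

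Txnip, a thioredoxin-binding protein that holds back glucose uptake and whose transcription follows glucose, had 6.95 in Control, 5.45 and 4.20 with MMS on Days 2 and 4, and 3.45 and 2.46 with Bleomycin on Days 2 and 6. The last 3 signals lie under the filter, and the lowest under the median of its array, so the size of these differences (-1.50, -2.75, -3.50 and -4.49) is not resolved there. All 4 were at least 2-fold lower under each scaling. Prkaa2, a catalytic subunit of AMP-activated kinase, had -0.78, -2.09, -0.05 and -0.79. Nfe2l2, the transcription factor NRF2, which drives genes of the pentose phosphate pathway, had 0.00, -1.86, -0.11 and 0.64. Vhl, which targets HIF-1 alpha for degradation, had -0.58, -1.34, -0.71 and -0.71, all within 2-fold with median centring.

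**Figure D4:**
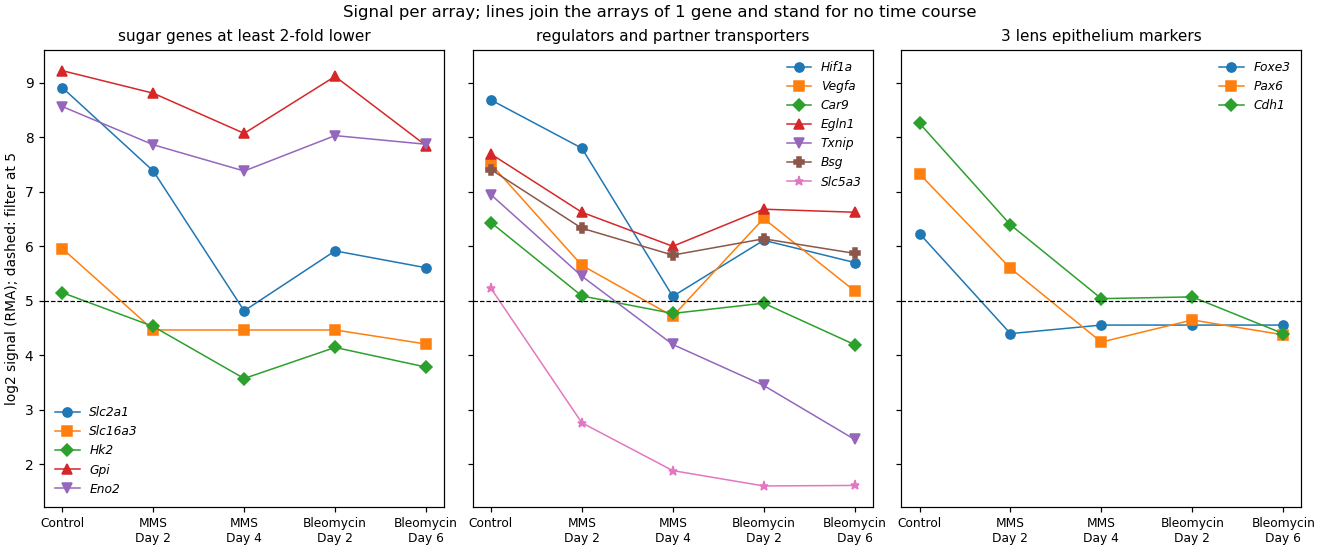
Log2 signal after RMA (vertical axis) in each of the 5 arrays (horizontal axis) for the 5 genes at least 2-fold lower in a treated array (left), for regulators and further transporters (middle) and for 3 lens epithelium markers (right). Lines join the values of 1 gene and stand for no time course, and the dashed line is the filter at 5. Slc2a1 runs from 8.91 in Control to 4.81 in MMS Day 4 and Hif1a from 8.69 to 5.08.

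Among enzymes and transporters, Slc5a3, which takes up myo-inositol, the osmolyte that stands beside sorbitol in the lens, had 5.23 in Control and 2.76, 1.88, 1.60 and 1.61 in the treated arrays. It passed the filter through Control alone, and its treated signals lie under the array medians, so the differences of -2.47, -3.35, -3.63 and -3.62 say that it was lower and do not resolve by how much. Gpd1, which draws glycolytic carbon off to glycerol 3-phosphate, was the one gene of the 26 at least 2-fold higher as deposited, with differences of 1.20, 0.70, 0.59 and -0.36 over a Control signal of 4.58. With median centring Akr1a1, an aldehyde reductase, passed 2-fold higher in both MMS arrays (1.09 and 1.20), the enolase Eno3 in MMS Day 4 (1.07), the glycogen phosphorylase Pygl in Bleomycin Day 2 (1.04) and Nfe2l2 in Bleomycin Day 6 (1.11). Dera, the deoxyribose phosphate aldolase, had -0.51, -1.75, -0.62 and -0.60, and Dld, a subunit of pyruvate dehydrogenase, 0.00, -1.01, 0.34 and 0.00, the second within 2-fold with median centring (-0.38). Galm, which prepares galactose for breakdown, had -1.05, -1.33, -1.15 and -0.95, and Pygb, a glycogen phosphorylase, -0.81, -0.90, -1.08 and -1.69. With median centring no value of Galm passed 2-fold, and of Pygb only that in Bleomycin Day 6 did (-1.22). Gapdh, which catalyses the step before Pgk1, had no probe set of its own symbol in the annotation used.

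Promoter sequences are shown for 4 genes on both sides of Control, to set them beside the values of Hif1a, since HIF-1 acts through a known site. The sequences, taken from RefSeq on the rat build GRCr8, are the 150 bases before the gene start on the coding strand, 5′ to 3′. Capitals mark ACGTG or GCGTG, the core letters of a HIF-1 site, on either strand (CACGT and CACGC read in the opposite direction). As deposited, Slc2a1 and Eno2 stood below Control in all 4 arrays, Taldo1 above it, and Ldha above it in 3. The motif and the 4 genes were chosen after the values were seen. The windows lie at chr5:138002372-138002521 on the + strand (Slc2a1), chr4:159267221-159267370 on the - strand (Eno2), chr1:106507942-106508091 on the + strand (Ldha) and chr1:205923046-205923195 on the + strand (Taldo1).
Slc2a1: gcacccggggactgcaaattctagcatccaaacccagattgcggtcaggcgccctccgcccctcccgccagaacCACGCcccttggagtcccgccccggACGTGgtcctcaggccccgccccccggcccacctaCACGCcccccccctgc
Eno2: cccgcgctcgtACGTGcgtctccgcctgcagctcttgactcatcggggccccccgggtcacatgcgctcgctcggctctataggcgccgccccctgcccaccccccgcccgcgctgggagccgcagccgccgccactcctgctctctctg
Ldha: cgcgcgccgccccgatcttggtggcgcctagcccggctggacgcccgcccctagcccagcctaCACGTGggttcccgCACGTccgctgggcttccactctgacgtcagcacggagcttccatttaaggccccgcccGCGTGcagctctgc
Taldo1: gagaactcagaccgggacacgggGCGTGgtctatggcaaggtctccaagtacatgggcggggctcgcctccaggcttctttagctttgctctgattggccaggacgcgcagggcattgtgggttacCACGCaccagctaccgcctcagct

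These windows held 3, 1, 4 and 2 matches, counting both strands of the palindrome CACGTG in Ldha, which is also an E-box, the site of MYC and related factors. Among the measured genes, 17 had a promoter entry, and 11 of them (64.7%) held a match in the 250 bases before the start. Of all 3399 genes above the filter with an entry 60.8% held one, and of all 33469 promoter windows 36.7%. The 17 genes were thus close to the other genes above the filter. Slc16a3 and Hk2, lower in all 4 arrays, held no match, and neither did Gpi, Bpgm, Tkt or Sord. A match describes the letters of a window and no binding. Pgk1, Pgls, Akr1b1 and Slc2a3 had no entry.

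Markers of the epithelium, which covers the anterior lens surface, were lower than Control in the treated arrays, as Slc2a1 was. Of the 6 markers, only Pax6 had the array order of Slc2a1. The summed linear signal of 6 of 6 markers, among them Foxe3, Pax6 and Cdh1, was 908 in Control and 319, 132, 136 and 130 in the treated arrays. There the number past 2-fold lower was 4, 6, 6 and 6, against 9.47%, 27.0%, 9.40% and 19.6% of all genes above the filter. Cdh1, the epithelial adhesion molecule E-cadherin, had 8.26 in Control and 6.39, 5.04, 5.07 and 4.40 in the treated arrays. Fewer epithelial cells and less RNA per cell cannot be told apart in RNA of whole lenses, and the part of the epithelium in the values of Slc2a1, Slc16a3, Hk2 and Hif1a was not tested. The 7 measured lens fiber markers summed to 22484 in Control and between 22095 and 24321 in the treated arrays, a sum that the brightest of them carry, and the number past 2-fold lower was 0, 0, 0 and 1 (Gja3, a fiber connexin, at -1.12 in Bleomycin Day 6 and -0.65 there with median centring). The labelled tissue was thus borne out by its defining genes. Of the markers of retina, macrophages and vascular endothelium that had a probe set, none passed the filter. Of 3 skeletal muscle markers with a probe set 1 passed, Ckm, the muscle creatine kinase, with 5.36 in Control and 5.23 to 5.68 in the treated arrays. Desmin (Des), a muscle marker listed for ciliary body and iris, passed through Control alone, with 5.59 against 2.79 to 3.44, while the other 5 of that list were under the filter in every array.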

How the data were processed

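RNA of whole rat lenses was hybridized by the authors to the Rat Gene 2.0 ST array, 5 arrays in all and 1 per condition. The deposited values are log2 signals that the authors normalized with RMA in R (versions not given in the sources used here), for 36685 probe sets, and they were used as deposited. Gene symbols came from the platform annotation, with 18511 probe sets of 1 symbol, 575 of several (not named here) and 17599 of none. Probe sets of 1 gene were averaged, and genes needed a log2 signal of 5 in at least 1 array, as in the study's methods. The array medians ran from 2.84 to 3.02, and signal over background limits the precision. RMA returned equal values for many probe sets, 18.4% between Control and MMS Day 2.

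With 1 array per group no test was made: differences of log2 signals, counts at least 2-fold apart and medians were computed in Python 3.11.15 (numpy 2.4.6, pandas 2.3.3, matplotlib 3.10.9). The 2-fold call was run on simulated arrays with shifts of set size, which checks the code and not the spread between lenses. Columns of other samples numbered 0. The genes and the lists were chosen with earlier results of these data known. Named are all 29 genes with a probe set, genes of the other sugar lists at least 2-fold from Control in a treated array, Hif1a and Txnip, and up to 3 genes per marker list with values. Ankrd37, Akr1a1, Eno3 and Pygl were named after their values were seen. Alternatives were no filter, a filter at 6, median centring, quantile normalization, centring on 70 olfactory receptor probe sets, and the brightest probe set per gene. Promoters came from RefSeq (GRCr8).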

Additional observations from a re-analysis of the deposited data

How the results depend on the processing

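Taking the brightest probe set per gene could not change the values of the 20 genes, because each had 1 probe set. With no signal filter no median changed by 1.5-fold or more. The counts against Control could not change there, because the 9 genes added differed from Control by -0.73 to 0.42. A filter at 6 left 14 genes. In the 2 MMS and then the 2 Bleomycin arrays, the earlier first, 1, 3, 1 and 2 were at least 2-fold lower than Control. Of all genes at this filter 10.4%, 29.2%, 9.71% and 20% were lower, a larger share than of the list in each array. The calls lost were those of Slc16a3 and Hk2, which passed the filter at 5 through Control alone. With median centring, 2 genes in MMS Day 2 and 4 in MMS Day 4 were at least 2-fold higher than Control. The shares of all genes were 2.68% and 6.60%. Lower were 1 in MMS Day 4 and 2 in Bleomycin Day 6, against 9.77% and 9.55% of all genes. The median in MMS Day 4 was 0.20, and 1 gene was higher in MMS Day 4 than in MMS Day 2 (0.843% of all genes). With quantile normalization, 2 and 4 genes were higher in the MMS arrays, against 3.30% and 6.62% of all genes. In MMS Day 4, 1 was lower than Control (10.1% of all genes), and 1 was higher than in MMS Day 2 (1.04%). Centring on olfactory receptor probe sets gave 9 lower genes in MMS Day 4 against Control, 3 against MMS Day 2 and 2 against Bleomycin Day 6, where 41.7%, 15.8% and 8.01% of all genes were lower. The cause of these shifts between scalings was not tested. Of 80 differences from Control of single genes, the sign changed in 21 after median centring, in 16 after quantile normalization and in 7 after olfactory receptor centring, none of them a difference of 2-fold or more as deposited. No replicate could be left out and no paired analysis was possible because each condition had 1 array. Signals under 5, which all treated arrays have for Slc16a3 and Hk2, leave the size of a difference unresolved.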
